A study of Mus musculus with 15 samples.

Results

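The genes described here are *Yap1* and *Wwtr1*, which encode the transcriptional coactivators YAP and TAZ, with their DNA-binding partner *Tead1* and genes that the pair is known to control or be controlled by: *Lats2*, *Amotl2*, *Ajuba*, *Ankrd1*, *Ccn1* (formerly *Cyr61*), *Ccn2* (formerly *Ctgf*) and *Axl*. They were chosen by name and matched to the gene symbols of the deposited expression tables, where all 10 were found among the 11677 genes of the culture table and 9 among the 11299 genes of the region table, from which *Lats2* was missing. The samples came from 21EM15 cells, an immortalized mouse lens epithelial line that carried no transgene or knockout in any group, in 15 samples. The groups were compared in pairs, with RNA measured by 3′ end sequencing: flat cultures near confluence (2D, 4 samples), spheroids grown without attachment and pooled for each sample (3D, 4 samples), and the internal (4 samples) and external (3 samples) regions of sectioned spheroids, isolated by laser capture microdissection. Each microdissected sample also pooled many spheroids. The cultures and the regions were extracted with different kits and normalized in separate tables, so comparisons were made only within a table.

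YAP and TAZ carry mechanical and cell contact signals to the nucleus. When the Hippo kinases (MST, then LATS) are active they phosphorylate YAP and TAZ, which stay in the cytoplasm or are degraded. Otherwise both enter the nucleus and, through the TEAD proteins, turn on genes such as *Ccn1*, *Ccn2* and *Ankrd1*. In the lens, YAP is known for keeping epithelial cells in a dividing, undifferentiated state. The data are messenger RNA levels and do not measure where YAP and TAZ proteins lie in the cell. In bulk samples, fewer cells expressing a gene and less RNA per cell cannot be told apart.

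Total reads over the listed genes ranged from 7305053 to 9362587 in the 2D samples, 7727642 to 8364276 in 3D, 4256391 to 11702504 in internal and 4044230 to 6086089 in external samples. A count of 3 reads, taken as the smallest signal that the depth can show, was worth 0.248 to 0.802 CPM, which is reads scaled to library size, and this limit covers counting error only. Of the lens markers examined, *Pax6*, *Six3*, *Prox1*, *Maf* and *Cryab* were listed in both tables, whereas the epithelial markers *Foxe3* and *Cdh1* were in neither. Of the lens markers listed, 3 of 6 were higher in 3D and 5 of 7 in the internal region at a limma adjusted p below 0.05, beside 9.74% and 9.58% of all genes. None of the 6 endothelial markers was listed, and 7 of 8 leukocyte markers were missing from the culture table. Fibroblast markers were present: 5 of the 8 listed passed the test as higher in 3D and 3 of 7 as higher and 1 of 7 as lower in the internal region, beside 9.74% of all genes higher in 3D and 9.58% higher and 12.1% lower in the internal region. *Postn* had log2 fold changes of 4.19 and 2.73, and the marker lower in the internal region was *Col1a1* (-1.56). The median of the list was 1.76 in the cultures and 0.34 in the regions. Their part in the differences given here was not tested. The samples numbered 2 stood apart in the cultures. In 151 of 11677 genes, 1.29%, both of them lay at least 1 log2 unit below each of the other 6 culture samples, against 0, 4 and 0 genes for the samples numbered 1, 3 and 4. *Yap1* and *Ccn2* were among these 151 genes.

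The sequence that TEAD proteins bind best, GGAATG on either strand, was sought in the RefSeq promoter windows of GRCm38.p6, which run from 250 bases before to 50 bases after each annotated start. Of all 32851 windows, 14.7% held the motif and 1.36% held at least 2 copies. Windows were given for 8 of the 10 genes, with 10 starts, and 9 of these 10 windows, from all 8 genes, held a match. The promoters of *Ankrd1*, *Ccn1*, *Axl*, *Amotl2* and *Ajuba* are shown because these 5 genes had lower mean levels in the internal than in the external region, and those of *Yap1* and *Wwtr1* because they encode the coactivators themselves. The stretches are written 5′ to 3′ along the gene's strand, with the motif or its reverse complement CATTCC in capitals. For *Ankrd1* and *Amotl2* only 30 bases around each match are shown, as some annotated transcripts begin further upstream.
Ankrd1, chr19:36120037-36120066, minus strand: gtcactgccaaaGGAATGaccctctcacat
Ankrd1, chr19:36119950-36119979, minus strand: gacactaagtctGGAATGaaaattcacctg
Ccn1, chr3:145649986-145650135, minus strand: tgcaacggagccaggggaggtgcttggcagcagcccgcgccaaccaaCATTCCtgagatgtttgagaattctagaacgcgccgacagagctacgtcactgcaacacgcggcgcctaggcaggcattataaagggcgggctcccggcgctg
Axl, chr7:25788904-25788983, minus strand: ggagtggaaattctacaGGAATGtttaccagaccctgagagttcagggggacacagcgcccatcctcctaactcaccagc
Amotl2, chr9:102717727-102717756, plus strand: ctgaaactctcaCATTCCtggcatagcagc
Ajuba, chr14:54577782-54577881, minus strand: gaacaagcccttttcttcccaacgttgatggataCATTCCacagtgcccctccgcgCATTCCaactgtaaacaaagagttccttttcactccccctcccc
Yap1, chr9:8004697-8004776, minus strand: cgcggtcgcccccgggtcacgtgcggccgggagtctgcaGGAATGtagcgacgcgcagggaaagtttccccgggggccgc
Wwtr1, chr3:57576001-57576090, minus strand: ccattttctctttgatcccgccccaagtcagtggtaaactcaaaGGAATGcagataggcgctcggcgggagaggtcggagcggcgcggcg
The 2 *Ankrd1* copies began 210 and 123 bases before the start and lay on the strand of the gene, as did the *Axl* copy at 233, the *Yap1* copy at 141 and the *Wwtr1* copy at 136. On the opposite strand, the *Ccn1* copy began 103 bases before the start, the *Amotl2* copy 65, and the *Ajuba* copies 186 and 164. The *Lats2* window held its copy after the start. A match describes the letters only and was not tested as a binding site.

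*Wwtr1* had more reads than *Yap1* in every sample. Reads per transcript do not scale with length in this 3′ end protocol, so levels of different genes are set side by side here. Whether the 3′ ends of different genes are captured and counted equally well was not tested. *Wwtr1* had 1.51 to 5.17 reads for each *Yap1* read in 2D, 2.79 to 4.17 in 3D, 1.88 to 4.43 in the internal region and 3.503 to 6.93 in the external region. The ratios overlapped within both pairs of groups. On the log2 CPM scale, *Axl* had the highest mean level of the genes described here in all 4 groups, and *Wwtr1* came next. *Axl* did not overlap with *Wwtr1* in any group. *Tead1* followed them in all 4 groups, and it overlapped with *Wwtr1* in 2D and in the internal region. The order below *Tead1* differed between the groups and neighbouring genes mostly overlapped. *Ccn2* came next to last in the cultures, above the *Lats2* row, and last in the regions.

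**Figure D1:**
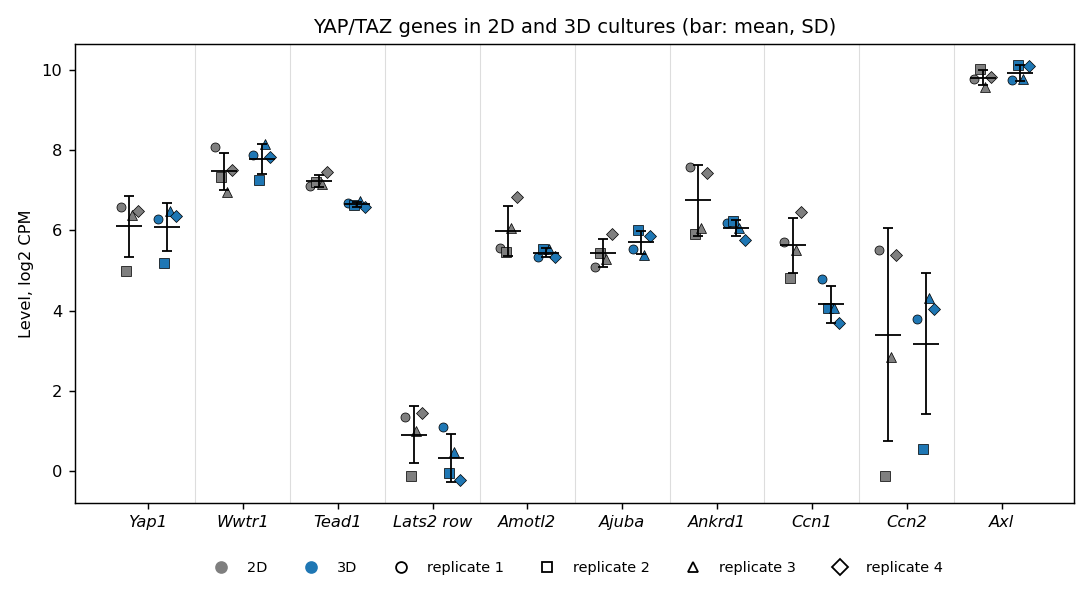
Levels of the 10 genes in each 2D (grey) and 3D (blue) sample, in log2 CPM, with the replicate number as the point's shape and the mean and SD as bars. *Tead1* and *Ccn1* lie lower in every 3D sample than in every 2D sample, and the samples numbered 2 lie apart in *Yap1* and *Ccn2*.

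The first comparison asked how growth as a spheroid rather than on plastic moved these genes. *Ccn1* and *Tead1* were lower in 3D, and the coactivator genes themselves did not pass the test. Differences were tested with limma on the log2 CPM values, and a gene passed at an adjusted p below 0.05 (Benjamini-Hochberg, over all 11677 genes). Of the 10 genes, 2 were lower, in a table where 9.25% of all genes were lower, and none was higher, where 9.74% of all genes were higher. At an unadjusted p below 0.05 limma also gave 0 higher genes among the 10, and 0 were higher with voom weights. The groups did not overlap for 2 of the 10 genes, against 24.0% of all genes. The median log2 fold change of the 10 genes was -0.38, beside -0.03 over all genes.

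*Ccn1* encodes a secreted matrix protein that binds integrins and is a standard readout of YAP and TAZ activity. Its levels were 5.72, 4.81, 5.52 and 6.45 log2 CPM in the 2D samples, and 4.80, 4.07, 4.08 and 3.70 in the 3D samples. All 3D samples were lower than all 2D samples, although the highest 3D value and the lowest 2D value were nearly level. In reads, these were 502, 204, 390 and 840 in 2D against 216, 134, 128 and 103 in 3D. The log2 fold change was -1.47 (95% interval -2.20 to -0.73), with an adjusted p of 0.0142 by limma. The related *Ccn2*, another secreted matrix protein and YAP target, had 431, 5, 59 and 398 reads in 2D and 107, 10, 151 and 131 in 3D. Its 2D samples thus spanned 5 to 431 reads, and the 3D samples lay inside that span. Its log2 fold change was -0.22 with an interval from -2.89 to 2.44 (limma, adjusted p 0.915), so neither a rise nor a fall could be seen at this spread. Without both samples numbered 2 the value was -0.52 (adjusted p 0.557).

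*Tead1* encodes the TEAD factor with the most reads here. In 2D it stood at 7.10, 7.21, 7.16 and 7.46 log2 CPM and in 3D at 6.67, 6.63, 6.72 and 6.57. The 3D values lay in a narrow band, entirely below the 2D values. The difference was -0.58 on the log2 scale (interval -0.85 to -0.32, limma adjusted p 0.00924). Neither *Ccn1* nor *Tead1* passed the stricter rule of an adjusted p below 0.01 with an absolute log2 fold change over 1, which 4.43% of all genes passed. Both kept an adjusted p below 0.05 when any single sample was left out.

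*Yap1* levels were 6.57, 4.98, 6.37 and 6.49 log2 CPM in 2D and 6.28, 5.19, 6.48 and 6.35 in 3D. The sample numbered 2 was the lowest of its group in both, with 229 and 294 reads against 607 to 907 in the other samples. The remaining samples of both groups overlapped. The log2 fold change was -0.03 (interval -0.86 to 0.80, limma adjusted p 0.964), and -0.11 without both samples numbered 2 (adjusted p 0.584). For *Wwtr1* the samples read 8.08, 7.34, 6.97 and 7.497 log2 CPM in 2D, and 7.88, 7.24, 8.16 and 7.83 in 3D. These groups overlapped too, and the log2 fold change of 0.31 had an interval from -0.24 to 0.85 (limma adjusted p 0.410).

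*Ankrd1* encodes the cardiac ankyrin repeat protein, a cofactor that responds to stretch and to YAP. It split the 2D samples, with 7.57 and 7.43 log2 CPM in replicates 1 and 4 and 5.91 and 6.07 in replicates 2 and 3. The 3D samples stood at 6.17, 6.23, 6.05 and 5.77, inside the range of the 2D group or just under it. Its log2 fold change was -0.69 (interval -1.48 to 0.09, limma adjusted p 0.197), and leaving out single samples moved it from -0.97 without 2D replicate 2 (adjusted p 0.0462) to -0.42 without 2D replicate 1 (0.398), with -0.46 without 2D replicate 4 (0.425). Without both samples numbered 2 it was -1.03 (adjusted p 0.0610). *Amotl2* encodes an angiomotin that ties YAP to cell junctions. It had 451, 320, 568 and 1088 reads in 2D and 316 to 371 in 3D, with a log2 fold change of -0.54 (adjusted p 0.179). *Ajuba* encodes a LIM protein that restrains LATS kinases. Its reads were 317 to 577 in 2D and 321 to 522 in 3D, with a log2 fold change of 0.27 (adjusted p 0.384). *Axl*, a receptor tyrosine kinase of the TAM family, had 6473 to 8613 reads in 2D and 6656 to 8919 in 3D, with a log2 fold change of 0.13 (interval -0.19 to 0.45, adjusted p 0.572).

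The row named *Lats2*, for the kinase that phosphorylates YAP, could not be read as the level of that gene. Its Ensembl ID, ENSMUSG00000114942, belongs in GENCODE vM21 to *Gm49361* (chr14:57642077-57746103, minus strand), and all 3287 exon bases of that model also belong to *Lats2* (chr14:57689662-57758388) or *Xpo4* on the same strand. The ID of *Lats2* itself, ENSMUSG00000021959, was not among the rows of either table. The row held 22, 5, 15 and 24 reads in 2D and 15, 6, 9 and 5 in 3D, with a log2 fold change of -0.58 (limma adjusted p 0.436). Leaving it out left the count of genes that passed at 2. The exons of the other 9 genes shared no base with another gene on their strand. In GENCODE vM21 (GRCm38) these genes lie at chr9:7931999-8004596 (*Yap1*), chr3:57455649-57575910 (*Wwtr1*), chr7:112679318-112906807 (*Tead1*), chr9:102716672-102733418 (*Amotl2*), chr14:54567472-54577558 (*Ajuba*), chr19:36111961-36120099 (*Ankrd1*), chr3:145646976-145649981 (*Ccn1*), chr10:24595442-24598683 (*Ccn2*) and chr7:25757273-25788705 (*Axl*).

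**Figure D2:**
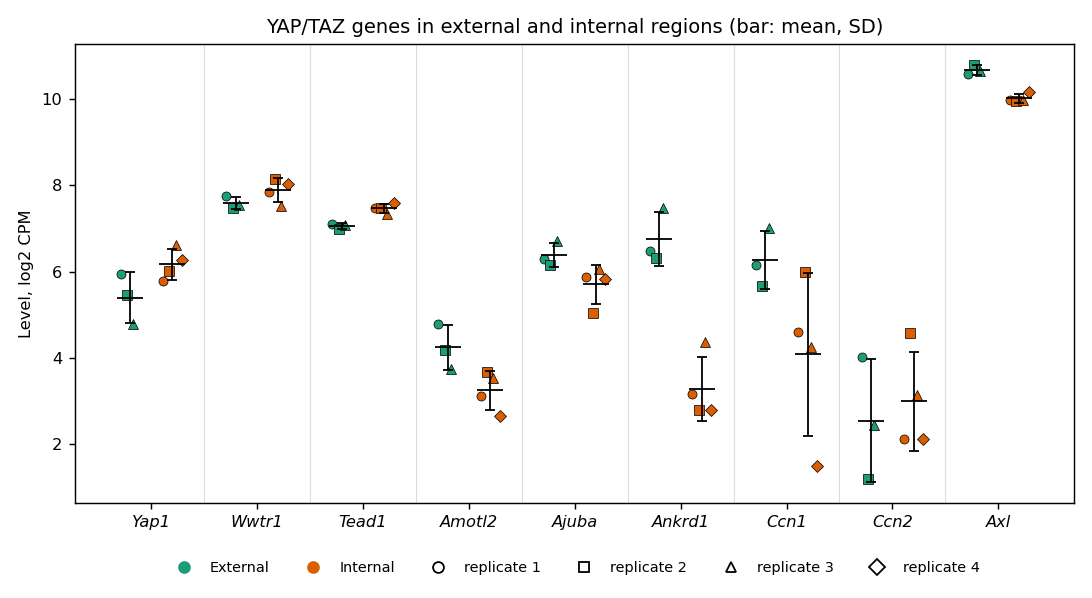
Levels of the 9 listed genes in each external (green) and internal (orange) sample, in log2 CPM, with the replicate number as the point's shape and the mean and SD as bars. *Ankrd1* and *Axl* lie lower in every internal sample than in every external sample, and *Ccn1* is spread from 1.48 to 5.98 among the internal samples.

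The second comparison asked how the core of the spheroid differed from its rim. *Ankrd1*, *Ccn1*, *Ajuba* and *Axl* were lower in the internal region, while *Yap1* and *Tead1* were higher there. Of the 9 genes listed, 4 were lower, in a table where 12.1% of all genes were lower, and 2 were higher, where 9.58% of all genes were higher. The groups did not overlap for 5 of the 9 genes, against 29.0% of all genes. *Ankrd1* and *Ccn1* also passed the stricter rule, which 7.62% of all genes passed. The median log2 fold change of the 9 genes was -0.66, beside 0.04 over all genes.

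*Ankrd1* showed the widest difference of the 9 genes. It had 57, 57, 89 and 80 reads in the internal samples and 543, 366 and 664 in the external samples, although the external samples were on the whole less deeply sequenced. On the log2 CPM scale these were 3.15, 2.78, 4.37 and 2.79 against 6.49, 6.32 and 7.47, leaving a wide gap between the groups. The log2 fold change was -3.49 (interval -4.21 to -2.77, limma adjusted p 1.71e-07). It ranged from -3.85 to -3.13 when single samples were left out, and the call held in each of those fits.

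*Ccn1* stood at 4.59, 5.98, 4.25 and 1.48 log2 CPM in the internal samples and at 6.14, 5.67 and 7.004 in the external samples. The groups overlapped, as internal replicate 2 lay above external replicate 2. Internal replicate 4 was far below the others, with 30 reads in the most deeply sequenced sample of the table. The log2 fold change was -2.19 (interval -3.41 to -0.97, limma adjusted p 0.00882). Without internal replicate 4 it was -1.33 (adjusted p 0.0104), and without external replicate 3 it was -1.83 and no longer passed (adjusted p 0.0720). The call was also lost with a robust variance prior (adjusted p 0.244) and without a variance trend (0.175). *Ccn2* had 27, 202, 37 and 49 reads in the internal samples and 96, 9 and 19 in the external samples. These overlapped throughout, with a log2 fold change of 0.45 (interval -0.87 to 1.76, adjusted p 0.665).

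*Axl* differed less in size but more evenly. Its levels were 9.99, 9.96, 9.97 and 10.17 log2 CPM in the internal samples and 10.59, 10.80 and 10.66 in the external samples. Every internal sample was lower than every external sample. This gave a log2 fold change of -0.66 (interval -0.92 to -0.40, limma adjusted p 0.000461), and the call held in all 7 fits without a sample. *Ajuba* read 5.88, 5.04, 6.06 and 5.82 log2 CPM in the internal samples and 6.30, 6.16 and 6.70 in the external samples, again without overlap. Its log2 fold change of -0.69 (adjusted p 0.0323) lost the call without internal replicate 2 (-0.47, adjusted p 0.130), external replicate 1 (-0.73, 0.0592) or external replicate 3 (-0.53, 0.172). *Amotl2*, at 3.12, 3.66, 3.53 and 2.65 log2 CPM in the internal samples against 4.79, 4.18 and 3.74, did not overlap between the groups either. Its log2 fold change of -0.9996 had an interval from -1.79 to -0.21 and missed the threshold (limma adjusted p 0.0648), which it passed without external replicate 3 (-1.25, 0.0496) or with voom weights (-1.20, 0.0283). Without external replicate 1 it had -0.72 (0.267).

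*Yap1* and *Tead1* were higher in the internal region. *Yap1* stood at 5.78, 6.01, 6.62 and 6.27 log2 CPM in the internal samples and at 5.95, 5.46 and 4.77 in the external samples. The lowest internal value lay below the highest external one. The difference was 0.77 on the log2 scale (interval 0.26 to 1.29, limma adjusted p 0.0282), and the call was lost without internal replicate 3 (0.62, 0.0937), internal replicate 4 (0.74, 0.0635), external replicate 2 (0.81, 0.0724) or external replicate 3 (0.46, 0.214). *Tead1* read 7.46, 7.47, 7.35 and 7.58 log2 CPM in the internal samples and 7.10, 6.98 and 7.09 in the external samples, with no overlap. Its log2 fold change was 0.41 (interval 0.11 to 0.71), close to the threshold with a limma adjusted p of 0.0473. That call was lost without any single sample other than internal replicate 3, with adjusted p from 0.0629 to 0.144 in those fits. *Wwtr1* had a log2 fold change of 0.29 (interval -0.03 to 0.62, adjusted p 0.199), from 7.84, 8.15, 7.52 and 8.03 log2 CPM in the internal samples and 7.76, 7.48 and 7.55 in the external samples.

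**Figure D3:**
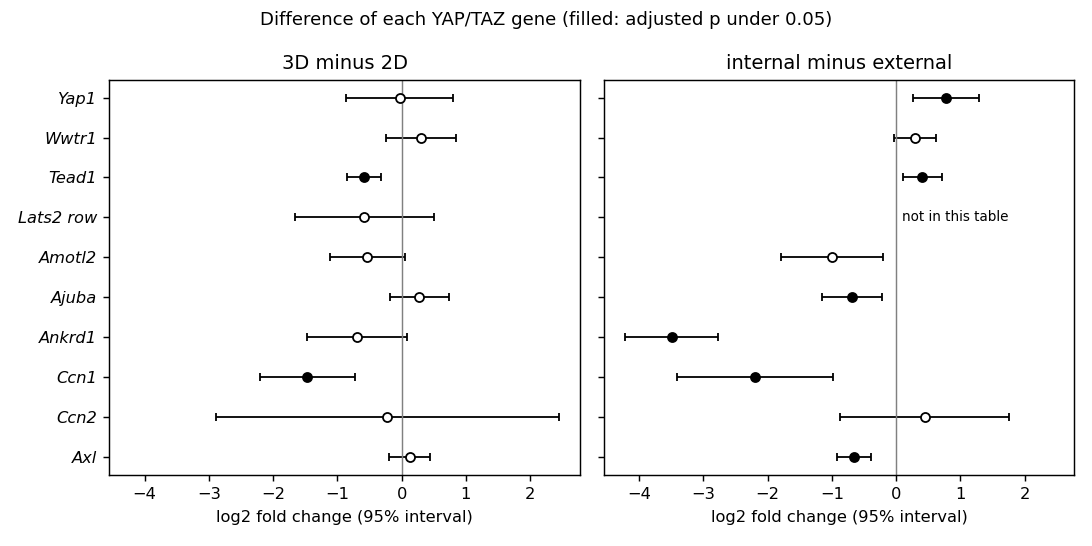
Log2 fold change of each gene in 3D against 2D (left) and in the internal against the external region (right), with 95% intervals from limma, filled where the adjusted p was below 0.05. *Ccn1* lies left of 0 in both panels, *Tead1* left of 0 in the cultures and right of 0 in the regions.

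The direction of *Tead1* thus differed between the comparisons, at -0.58 in 3D and 0.41 in the internal region, while *Ccn1* was lower in both, at -1.47 and -2.19. The comparisons come from separate tables and sample sets, and the difference between them was not tested.

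*Tead2* and *Tead4* passed in the cultures, and *Tead4* also in the regions. *Tead2*, with 490, 267, 98 and 326 reads in 2D and 460, 492, 689 and 669 in 3D, had a log2 fold change of 1.29 (limma adjusted p 0.0405). The call was lost without 2D replicate 4 or without any one 3D sample, with adjusted p from 0.0629 to 0.112 in those fits, and also with a robust variance prior (0.0594) or without a variance trend (0.0726). *Tead4*, with 205, 146, 133 and 235 reads in 2D and 78, 90, 35 and 60 in 3D, was lower by -1.33 (adjusted p 0.0113). As a share of all TEAD reads, *Tead1* took 64.0% to 83.2% in the 2D samples and 49.8% to 57.6% in 3D, whereas *Tead2* took 6.69% to 24.0% and 33.3% to 43.6%. The shares of neither gene overlapped between 2D and 3D. In the regions, *Tead1* shares were 57.99% to 64.9% internally and 52.2% to 63.4% externally. *Tead4* was lower in the internal region as well, at -1.59 (40, 16, 33 and 27 reads against 65, 73 and 37; adjusted p 0.0340), a call that was lost without any one sample other than internal replicates 1 and 3. *Tead3*, the TEAD gene with the fewest reads in 2D, had log2 fold changes of 1.11 and 1.06 (limma adjusted p 0.0509 and 0.0823). Of the cofactors that compete for TEAD proteins, *Vgll4* was higher in the internal region (0.68, adjusted p 0.0225) with 0.05 in 3D (0.923), and *Vgll3* had -0.48 in 3D (0.203) and -0.68 in the internal region (0.0551). The *Vgll4* call was lost without internal replicate 1 or 3 or external replicate 2 or 3.

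**Figure D4:**
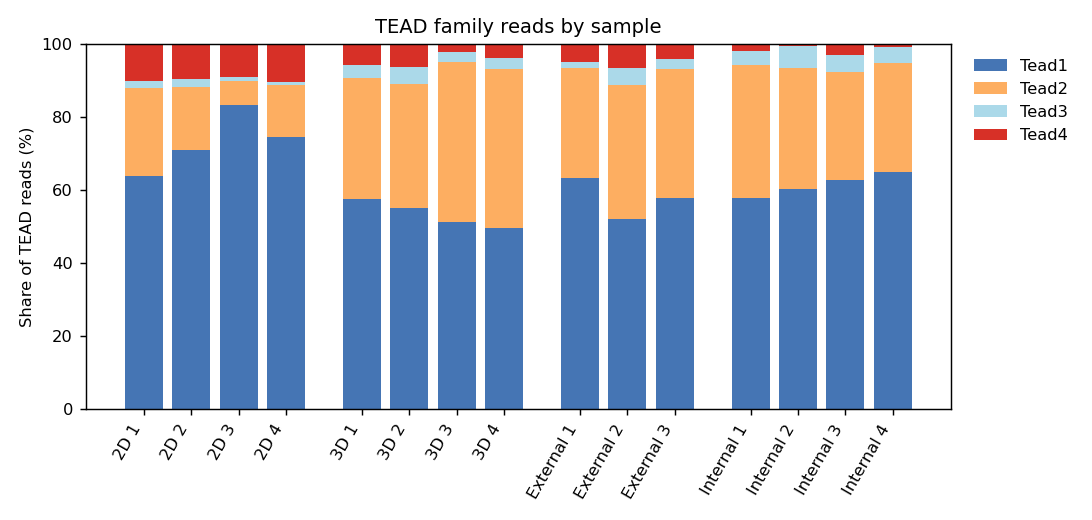
Share of the reads of the 4 TEAD genes, in percent, taken by each of them in every sample. *Tead1* holds 64.0% to 83.2% of the TEAD reads in the 2D samples and 49.8% to 57.6% in the 3D samples.

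Among 17 listed kinases and adaptors of the Hippo core, 1 passed in 3D against 2D, in a table where 9.25% of all genes were lower and 9.74% higher. It was *Wwc1*, which encodes the scaffold KIBRA, and it was lower (-1.16, adjusted p 0.00778). It was also lower in the internal region (-1.01, 0.0423), as was *Nf2*, the gene of the membrane-linked tumour suppressor Merlin (-0.63, 0.0247), while *Stk3*, which encodes the kinase MST2, was higher (0.79, 0.00180). Of these calls in the regions, that of *Wwc1* held only without internal replicate 3 and that of *Nf2* was lost without internal replicate 4 or external replicate 2. The median log2 fold change of the list was -0.12 in the cultures and -0.10 in the regions, over 17 genes each, of which the *Lats2* row was listed only in the cultures and *Map4k1* only in the regions. Among 23 junction, polarity and scaffold genes that act on the pathway, *Limd1*, the gene of another LIM protein that binds LATS kinases, was lower in 3D (-0.40, adjusted p 0.0448). That call was lost in 7 of the 8 fits that left out a sample, all but the one without 2D replicate 2. In the internal region, where 9.58% of all genes were higher and 12.1% lower, 3 of the 23 were higher, the cadherin genes *Fat4* (2.92, 0.00691) and *Fat1* (0.68, 0.0390) and the angiomotin gene *Amotl1* (0.70, 0.00980), and *Ajuba* alone was lower. *Amotl1* lost its call without external replicate 3, and *Fat1* without internal replicate 2 or 3 or external replicate 2 or 3. Their medians were -0.01 and 0.12.

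A published signature of 22 YAP and TAZ targets, which includes *Lats2*, *Amotl2*, *Axl*, *Ankrd1*, *Ccn1* and *Ccn2*, held genes that passed in both directions. In 3D against 2D 3 of its 22 genes were higher and 2 lower, where 9.74% and 9.25% of all genes were, and the median log2 fold change was -0.19. Those higher were *Gadd45a*, a growth arrest gene (2.72, adjusted p 0.0112), *Tgfb2*, the gene of a TGF-beta growth factor (2.07, 0.000189), and *Nt5e*, which encodes the surface enzyme CD73 and had 1, 0, 0 and 0 reads in 2D against 35, 27, 33 and 20 in 3D. *Ccn1* and *Myof*, a membrane repair gene (-0.55, 0.0132), were lower. In the regions 7 of 21 listed genes were higher and 4 lower, where 9.58% and 12.1% of all genes were, and the median was 0.45. The 4 lower genes were *Ankrd1*, *Ccn1*, *Axl* and *Myof* (-0.55, adjusted p 0.00342). *Nt5e* (2.31, 0.00491), *Gadd45a* (1.58, 1.93e-05) and *Tgfb2* (1.49, 1.27e-07) were again higher. Each of these 3 genes was higher in every internal sample than in every external one.

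**Figure D5:**
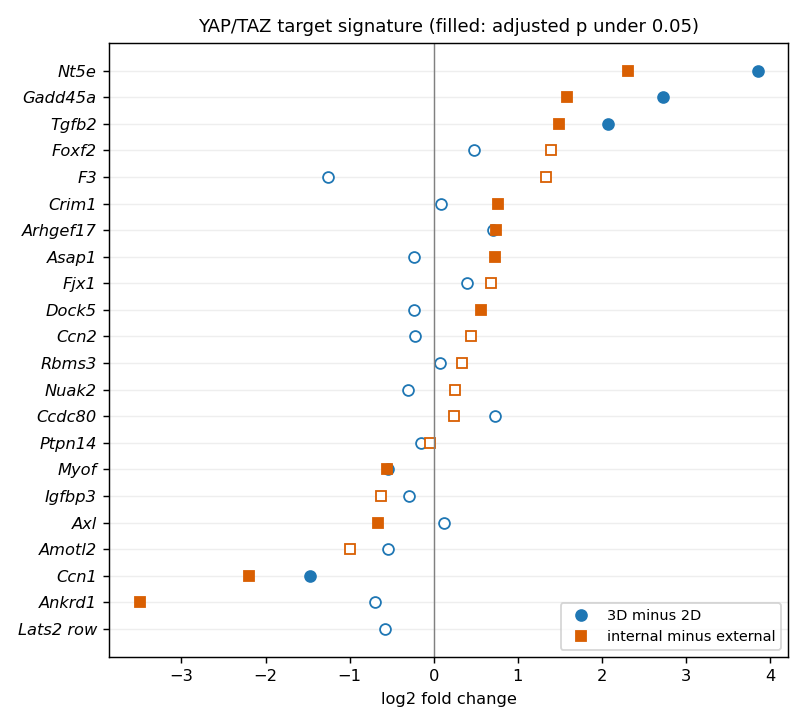
Log2 fold change of the 22 signature genes in 3D against 2D (blue circles) and in the internal against the external region (orange squares), filled where the adjusted p was below 0.05. *Nt5e*, *Gadd45a* and *Tgfb2* lie at the right in both comparisons and *Ccn1* at the left, and the fitted value of *Nt5e* in 3D rests on a 2D group with 1 read in all.

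*Ccn1* and *Ccn2* belong to the CCN family of secreted proteins. *Ccn5*, a member lacking the C-terminal domain, was higher in 3D (385, 360, 524 and 449 reads against 41, 56, 49 and 198; log2 fold change 2.72, adjusted p 0.00210) and in the internal region (1.46, 1.17e-05), opposite to *Ccn1*. *Ccn4* had 0.41 in 3D (0.251) and was higher in the internal region (0.57, 0.0472), a call that was lost without any one sample other than internal replicate 3 and external replicate 1. *Ccn3*, listed only in the cultures, had -0.32 (0.612). *Axl* belongs to the TAM receptors, whose ligands are GAS6 and protein S. *Gas6* and *Pros1*, the ligand genes, were higher in the internal region (1.43 and 0.83, adjusted p 0.00351 and 0.0181), where *Axl* was lower, and *Pros1* lost the call without internal replicate 2 or 4 or external replicate 3. Without a variance trend neither passed (0.0506 and 0.0606). In 3D they had 0.91 and 1.11 (0.324 and 0.0913), and *Pros1* passed without 2D replicate 1 (0.0222), without 3D replicate 2 (0.0462) or without both samples numbered 2 (0.0440). The receptor gene *Tyro3* was higher in 3D (0.98, 0.0279) and had -0.20 in the internal region (0.734), with its 3D call lost without 2D replicate 3 or 4 or 3D replicate 2, 3 or 4. *Mertk* had 0.22 in both comparisons (0.472 and 0.539).

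Other genes that respond to the same signals were examined beside the YAP and TAZ targets. *Ccn1* and *Ankrd1* are also responsive to actin dynamics through MRTF and SRF. Of 16 listed genes of this group, which holds targets and the MRTF genes *Mrtfa* and *Mrtfb* themselves, 2 were lower in 3D, beside 9.25% of all genes, namely *Actb* (-0.81, adjusted p 0.0352) and *Flna* (-0.68, 0.0337), where the median log2 fold change was -0.43. The *Actb* call was lost in 6 of the 8 fits without a sample, all but those without 2D replicates 1 and 2, and that of *Flna* in 5, all but those and the one without 3D replicate 2. Of 15 listed in the regions 8 were lower internally, beside 12.1% of all genes (median -0.92), led by the smooth muscle actin gene *Acta2* (-2.56, 5.53e-11), *Actg1* (-1.29, 0.000112) and *Flna* (-1.23, 1.93e-06). Among 20 immediate early genes, to which *Ccn1* also belongs by its rapid induction, 4 were higher in 3D and 1 lower, beside 9.74% and 9.25% of all genes. *Egr1* (2.47, 0.0114), *Atf3* (1.57, 0.0127) and *Ier3* (1.09, 0.0176) were higher, *Ier3* not without 3D replicate 4 (0.0555). In the regions *Fos* (3.11, 0.00322) and *Junb* (0.99, 0.0382) were higher internally and *Fosl1* was lower (-3.30, 1.94e-06), with 2 higher and 3 lower of 19, beside 9.58% and 12.1% of all genes. *Junb* lost its call without internal replicate 3 or 4 or external replicate 2 or 3.

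Markers of dividing cells moved with both comparisons. Of 16 proliferation genes 14 were lower in 3D (median log2 fold change -1.27), and 14 were lower internally, where the median was -3.83. Of all genes, 9.25% were lower in 3D and 12.1% internally. Their summed level was 1990 to 3740 CPM in the 2D samples and 1108 to 1287 in 3D, and 1013 to 1245 CPM in the external samples and 88.3 to 144 in the internal samples. *Cdc20* was among the strongest, at -1.51 and -5.00 (adjusted p 0.00392 and 1.03e-06). The mitochondrially encoded genes took 2.27% to 3.72% of the reads in 2D and 4.02% to 6.23% in 3D, 2.53% to 3.60% in the external and 5.42% to 6.98% in the internal samples. Of the 7 listed, 4 were higher in 3D, and internally 6 were higher and 1 lower, beside 9.74%, 9.58% and 12.1% of all genes. The part of either in the differences of *Ccn1*, *Ankrd1* and the other genes was not tested.

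The genes most like *Ccn1* and *Ccn2* over the samples were sought by Pearson r, taking the smaller of the values over the 8 culture samples and the 7 region samples, among 9463 genes in both tables. For *Ccn1* these were *Smc6* (r 0.91 in the cultures and 0.90 in the regions), *Pdss1* (0.90 and 0.99) and *Zfp948* (0.96 and 0.90). For *Ccn2* they were *Tmem87a* (0.96 and 0.92), *Pfn1* (0.93 and 0.90) and *Sem1* (0.95 and 0.90). All were chosen for their likeness, and the samples share their libraries and depth. Each r spanned both groups of a table, so a difference between the groups enters it. *Pfn1*, the gene of the actin-binding protein profilin, had 142 and 365 reads in the samples numbered 2 of 2D and 3D and 913 to 2955 in the other culture samples, and *Sem1* had 27 and 61 against 409 to 2212. *Yap1* had an r of 0.95 with *Ccn2* in the cultures and 0.35 in the regions. Both genes were among the 151 that lay low in both culture samples numbered 2, and r without these samples was not computed. With *Ccn1*, *Amotl2* had an r of 0.78 in the cultures and 0.75 in the regions, the highest smaller value among the members, *Ankrd1* 0.78 and 0.67, and *Tead1* 0.89 and -0.70.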

How the data were processed

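RNA was profiled by QuantSeq 3′ mRNA sequencing. The authors trimmed reads, retained sense ones, aligned them to GRCm38.p6 (STAR 2.7.8a), counted reads per gene (featureCounts 1.6.0) and filtered low genes, per the paper and the submitters' processing notes. They deposited log2 CPM values per sample in 2 tables, scaled within each, with a prior of 2.0 reads on average. The deposited columns with the authors' own fold changes and p-values were not used. Whole reads were recovered from the spacing of the log2 values, within 0.1 read, for 100.0% of values, and served as read counts and for alternatives. The test was limma 3.58.1 in R 4.3.3 with a variance trend on the log2 values, two-sided, its p-values adjusted by Benjamini and Hochberg within each table, and was checked on simulated data. Groups came from the labels. By the study's methods each replicate was its own dish or its own pool of spheroids. No source used here says whether internal and external samples shared a pool, or whether replicates came from separate passages or days. The p-values thus measure the spread between these samples.

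The genes and lists were chosen with earlier results of these data known. Named genes were the members, all listed TEAD, VGLL, CCN and TAM genes, the 3 largest log2 fold changes among the genes of each other list that passed, and the 3 genes most like *Ccn1* and *Ccn2* with means of 2 log2 CPM or more. *Myof* was named after its values were seen, and a listed gene is not reported here. From the lists of proliferation, lens, fibroblast and mitochondrial genes, counts are given and few genes are named. GENCODE vM21 held 11676 of 11677 Ensembl IDs of the cultures and 11298 of 11299 of the regions. Alternatives covered the variance prior, replicate block, single samples left out, both samples numbered 2 left out, library scaling, prior counts of 0.5 and 5, voom weights, a mean of 1 log2 CPM or more and the stricter call rule. A further external sample was not analysed here. The authors set it aside because it differed from the other external samples in a principal component analysis of expression. The spread of the external group, and with it the region p-values and overlaps, may therefore be understated. Python 3.11.15 and matplotlib 3.10.9 were also used.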

Additional observations from a re-analysis of the deposited data

Results flagged for a closer look

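In 2D replicate 2, *Yap1* stood at 4.9769 log2 CPM (229 reads), while the other 2D samples lay at 6.37 to 6.57. In 3D replicate 2 it stood at 5.1912 log2 CPM (294 reads), against 6.28 to 6.48. *Ccn2* in 3D replicate 2 was at 0.56006 log2 CPM (10 reads), while the other 3D samples lay at 3.80 to 4.31. Each of these values lay farther from the rest of its group than Dixon's test allows. They were 3 of 29 group tests of the genes described here, and chance alone flags about 1 in 20. All 3 come from samples numbered 2, the pair in which 151 genes lay at least 1 log2 unit below every other culture sample.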

How the results depend on the processing

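In 3D against 2D the count of lower genes among the 10 was 2 to 3 when single samples were left out and 0 under the stricter rule. In the regions the count of higher genes fell from 2 to 0 without a variance trend, with voom weights, under the stricter rule and with the replicate block, and to 1 with median-of-ratios scaling. Leaving out single samples gave 0 to 1 higher and 3 to 4 lower genes, and 2 lower genes remained as a count without a variance trend and under the stricter rule. The *Yap1* fold change in 3D turned to 0.0032 with median-of-ratios scaling and ranged from -0.41 to 0.27 without single samples, that of *Ccn2* from -1.40 to 0.65 (cultures), or -0.23 to 1.18 (regions). *Vgll4* in 3D turned to -0.0915 without both samples numbered 2 and ranged from -0.0788 to 0.323 without single samples, and *Ccn3* ranged from -0.601 to 0.0317. *Tyro3* in the regions turned to 0.0586 with the replicate block and ranged from -0.430 to 0.0586. The cause of these changes was not tested.

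The replicate numbers were not taken as pairs, since no source used here says that they pair samples. The deviations of same-numbered samples correlated at 0.23, 0.50, 0.07 and 0.01 in the cultures and at -0.04, -0.07 and -0.06 in the regions. The highest of these values, 0.50, was that of the culture samples numbered 2. With the replicate block, which leaves internal replicate 4 without weight, 1343 genes were higher and 1337 lower in 3D, against 1137 and 1080 without it, and 719 and 1064 against 1083 and 1370 in the regions. Under it *Yap1* and *Tead1* had fold changes of 0.74 and 0.37 in the regions (limma adjusted p 0.119 and 0.169), and *Gas6* and *Pros1* passed in 3D (0.0377 and 0.0215). Scaling by plain totals moved the median of all genes in the regions from 0.04 to 0.15 and gave 1448 higher and 1114 lower genes there, and without a variance trend there were 624 and 864. With plain totals *Ajuba* had -0.58 (adjusted p 0.0671), while *Yap1*, *Tead1*, *Ankrd1*, *Axl* and *Ccn1* kept their calls. In the regions *Yap1*, *Tead1*, *Ajuba*, *Tead4*, *Vgll4* and *Ccn4* lost their calls without a variance trend (limma adjusted p 0.0748 to 0.159), *Yap1*, *Tead1*, *Vgll4* and *Ccn4* with voom weights (0.0530 to 0.0683), *Tead1* and *Ccn4* with median-of-ratios scaling (0.0595 and 0.0549), and *Pros1*, *Tead4* and *Ccn4* with the replicate block (0.0937 to 0.159). Low counts limit the *Lats2* row, which fell to 5 reads. *Ccn2* fell to 5 reads in 2D replicate 2, a sample of 7305053 reads, while 2D replicate 1 held 431 among 9362587.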
